A study of Mus musculus with 30 samples.

Results

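The hypothalamus of wild-type (WT) mice kept under an ultradian light schedule is described here from 15 of the 30 arrays of the experiment. These are all the arrays labelled as wild type. The methods name fewer wild-type mice for this schedule than there are arrays here. No label says whether any mouse was measured more than once. The mice were young adult males on a C57BL/6 background with minor contributions from the Bruce4 embryonic stem cells of the targeted line. They were homozygous for the mouse Per3 gene, carried no Cre, and came from the same conditional transgenic stock as the knock-in (KI) lines (Per3 5/5, Per3 4/4), in which a human exon takes the place of a mouse one. After entrainment to a conventional light-dark cycle, light and darkness alternated every 3.5 h, and the brains were taken in the light phase of cycle 17. Tissue blocks of the hypothalamus were dissected from the stored brains, and their RNA was labelled with Cy3 and hybridized to Agilent whole-mouse-genome arrays.

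The hypothalamus is a set of small nuclei at the base of the brain that steer feeding, body temperature, hormone release, sleep and daily timing. Its neurons are known by the peptides they release, such as orexin (Hcrt) and melanin-concentrating hormone (Pmch) in the lateral hypothalamus, agouti-related peptide (Agrp) and growth hormone-releasing hormone (Ghrh) in the arcuate nucleus, and vasopressin (Avp) and oxytocin (Oxt) in the supraoptic and paraventricular nuclei. The block borders on the thalamus above, the pituitary below and the choroid plexus of the ventricles, so the genes of these neighbours are informative about what a dissected block held.

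The arrays fell into 2 sets by the kind of scanner file. Set 1 held WT 1 to WT 7 and set 2 held WT 8 to WT 15, and the sets were ranked separately. Each was spread over 4 slides, as told by the scan images. In set 2 the file headers give 3 slide barcodes for the 4 scan images, so its number of slides is uncertain. The level of a probe is given as the log2 intensity minus the 75th percentile of its array, so that 0 is the 75th percentile of the array and a difference of 1 is a doubling. A gene is represented by its brightest probe among those well above background on all arrays of the set, which left 26692 of 41174 probes (64.8%) and 15117 genes in set 1, and 23781 probes (57.8%) and 14163 genes in set 2. Between 67.4% and 73.9% of spots were well above background in set 1 and between 60.9% and 73.7% in set 2. Brightness also depends on the probe, so an order of genes by level is an order of signal and not of transcript number. The spread is the SD over the arrays of a set, and each SD is only as precise as 7 or 8 arrays allow.

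The SD between arrays, given here beside that of repeated spots, holds the differences between animals together with those of labelling and hybridization, which repeated spots leave out. Set 2 had the higher median. The SD between arrays had a median of 0.20 over the probes of set 1 and 0.35 over those of set 2. Probes printed 10 times on each array gave the error within an array, with a median SD of 0.061 in set 1 and 0.072 in set 2, while the same probes had a median SD of 0.21 and 0.41 between arrays. An SD over 1 was found for 77 genes (0.509%) in set 1 and 302 genes (2.13%) in set 2.

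One array of set 2, WT 10, went against its tissue label and is described before the results that rest on it. Hcrt was at 3.46, 5.20, 3.78, 5.09, 4.29, 5.49 and 4.79 in WT 1 to WT 7, and at 5.58, 6.54, -0.79, 6.42, 6.78, 6.41, 6.47 and 6.97 in WT 8 to WT 15. The value of -0.79 in WT 10 lay apart from every other WT array, and among the KI arrays Hcrt ranged from 4.52 to 5.69 in Per3 5/5 and from 5.85 to 7.18 in Per3 4/4. Pmch was at -0.96 in WT 10 and between 4.29 and 5.40 on the other arrays of set 2. Ghrh was at -2.25 there against 0.25 to 2.34, Avp at 1.43 against 3.74 to 5.84, and Oxt at 2.19 against 5.33 to 6.34. Slc17a6, the vesicular glutamate transporter of hypothalamic and thalamic neurons, was at 1.00 in WT 10 against 3.94 to 4.90.

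**Figure D1:**
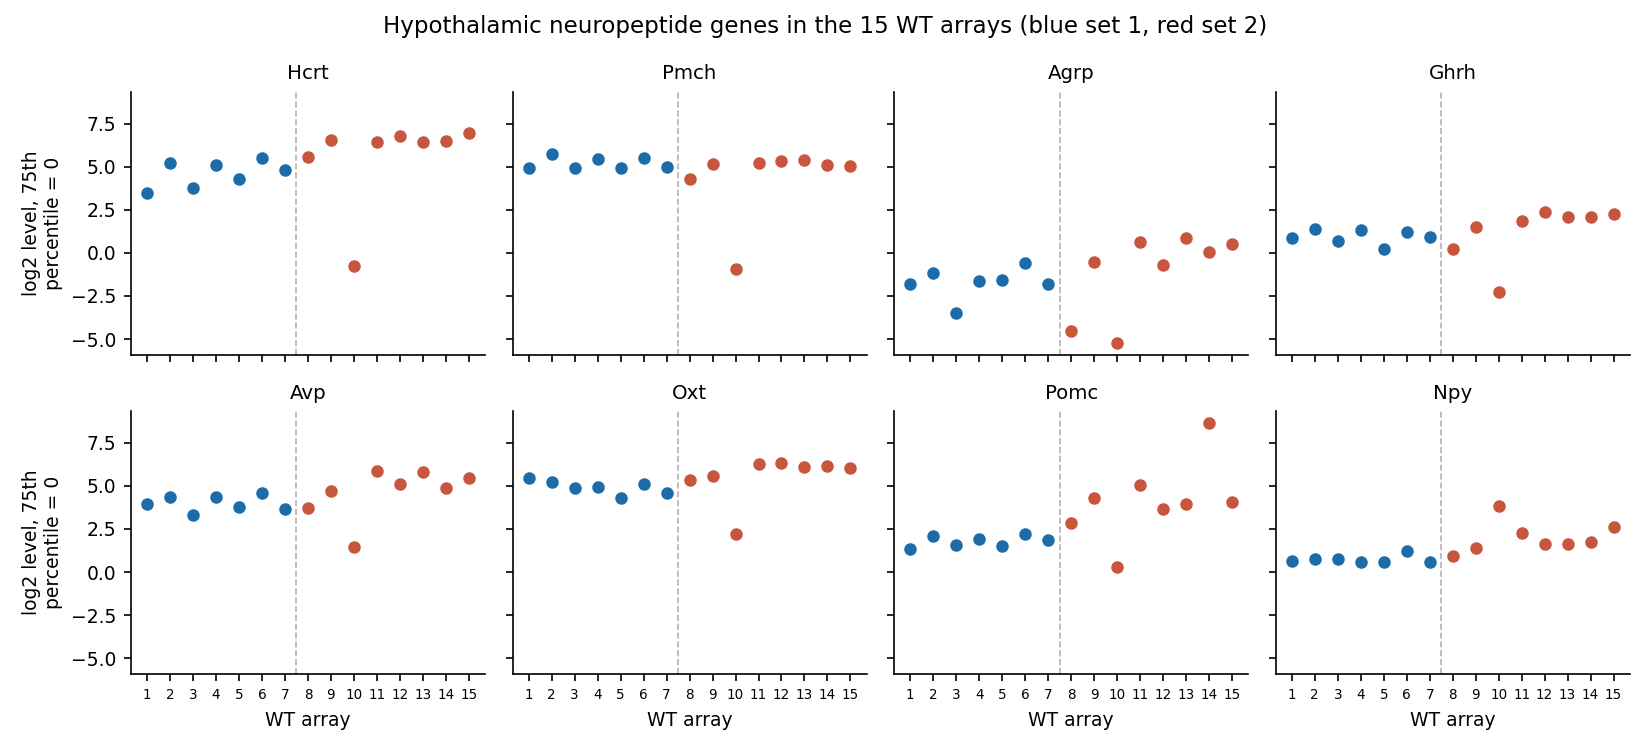
Level of 8 hypothalamic peptide genes (log2 relative to the 75th percentile of the array, vertical axis) on each of the 15 WT arrays (horizontal axis, set 1 on the left and set 2 on the right), 1 point per array. Hcrt, Pmch, Agrp, Ghrh, Avp, Oxt and Pomc were lowest of set 2 in WT 10, whereas Npy was highest there at 3.81, and Pomc was highest in WT 14 at 8.63.

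Genes that are low in hypothalamus and high in the olfactory bulb or striatum stood at the other end of WT 10. Doc2g and Cdhr1, both known from the mitral cells of the olfactory bulb, were at 4.74 and 3.95, whereas the other arrays of set 2 ranged from -3.34 to -1.13 for Doc2g and from -2.84 to -2.10 for Cdhr1. Sp8, a transcription factor of olfactory interneurons, was at 0.89 against -4.06 to -2.92. The striatal dopamine receptor Drd1 was at 0.81 against -3.12 to -1.24. The gene lists lay the same way. In WT 10, 10 of 11 measured striatum genes were the highest of the set, all 12 thalamus genes and all 14 oligodendrocyte genes were below the median of the other arrays, and 14 of 27 neuropeptide genes were the lowest of the set while 8 were the highest. Of the 11 hypothalamic transcription factors, 5 were the lowest and 3 the highest. Mean differences from the median of the other arrays were 1.89 for the striatum list, 1.30 for the cortex and hippocampus list, -2.61 for the thalamus list, -1.15 for the neuropeptides and -0.81 for the hypothalamic transcription factors. Across all genes, WT 10 lay at least 2 log2 units above every other array of its set for 76 genes and below for 49. The next array, WT 14, did so for 27 and 1. The overlap of variable genes and the spread of the gene lists of set 2 are therefore also given without WT 10 where they changed. Other measures put other arrays next to WT 10. The median correlation with the other arrays of the set was 0.958 for WT 10, 0.966 for WT 13 and 0.968 for WT 15. The median SD of set 2 was 0.31 without WT 15, 0.32 without WT 13 and 0.33 without WT 10, beside 0.35 with all arrays. WT 15 was also the dimmest array of the set, with a 75th percentile of 490 before scaling.

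**Figure D2:**
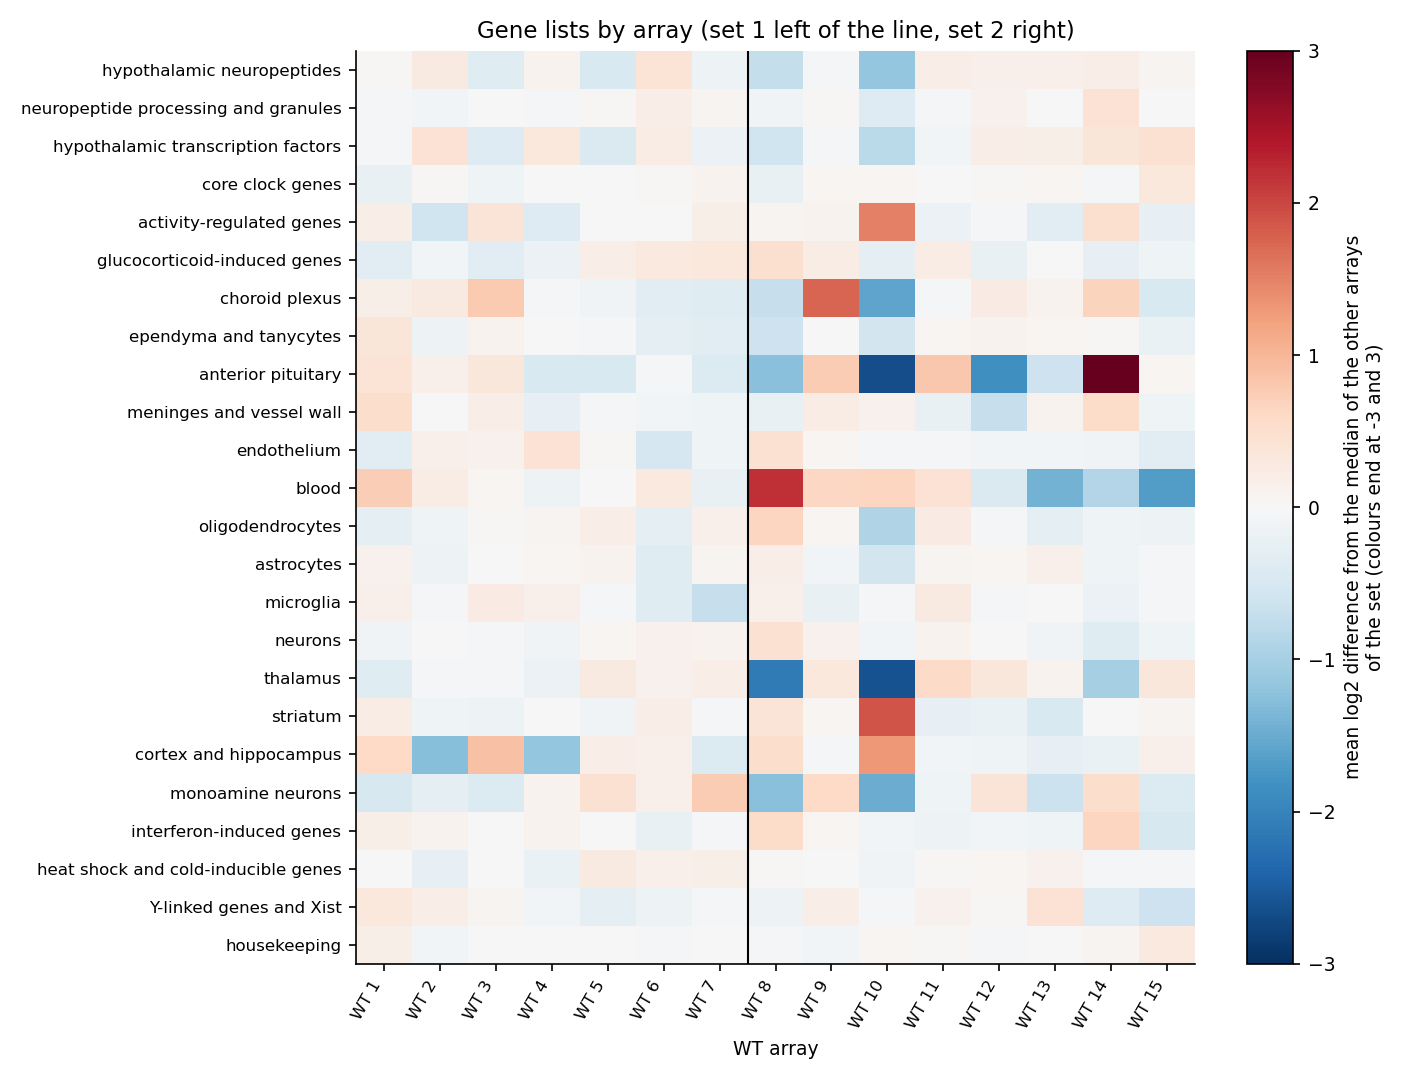
Mean difference of each of 24 gene lists (vertical axis) from the median of the other arrays of the set, on each WT array (horizontal axis), in log2 units, with colours ending at -3 and 3. WT 10 stood out for thalamus (-2.61), striatum (1.89) and activity-regulated genes (1.52), WT 14 for anterior pituitary (4.30), WT 8 for blood (2.20) and thalamus (-2.13), and WT 2 and WT 4 for cortex and hippocampus (-1.27 and -1.17).

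The brightest genes were largely the same in both sets. Of the 100 brightest genes of each set, 79 were shared, which is 79% of each list. The first of both sets was Ptprz1, a receptor phosphatase of glia and their precursors, with 9.41 ± 0.11 (SD, n = 7) in set 1 and 8.69 ± 0.47 (n = 8) in set 2. Its other 3 probes were dimmer, with set 1 means of 4.68, 3.74 and -3.37, so the rank of this gene belongs to 1 probe. COX2, a mitochondrially encoded subunit of cytochrome oxidase, was at rank 3 of both sets with 9.00 ± 0.11 and 7.88 ± 0.33. CYTB, the cytochrome b of complex III, had 8.61 ± 0.17 and 7.55 ± 0.29. Cox6a1, a nuclear subunit of the same oxidase, had 8.72 ± 0.11 and 7.84 ± 0.19. Sparcl1, a matrix protein of astrocytes, was read by a different probe in each set (8.76 ± 0.13 and 7.78 ± 0.19). It and Apoe (8.06 ± 0.21 and 7.84 ± 0.16), the lipid carrier that astrocytes secrete, also stood among the first 15 shared genes. The others were Aldoa of glycolysis, the iron store Fth1, the ribosomal genes Rplp1, Fau, Rps23 and Rps29, the autophagy gene Gabarapl1, the mitochondrial Chchd10, and Lars2.

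Components of ribosomes and of respiratory chains were the most frequent of the kinds of genes that were counted. Cytosolic ribosomal proteins took 34 of the 100 places in set 1 and 30 in set 2, and 28 of them were shared. Nuclear subunits of the respiratory chain and ATP synthase took 12 and 9 places, mitochondrially encoded genes 4 and 3, and tubulins 2 and 2. Together these kinds, tubulins included, accounted for 42 of the 79 shared genes. The rest included the prostaglandin D synthase Ptgds, the cystatin Cst3, the ubiquitin hydrolase Uchl1, the proSAAS gene Pcsk1n of neuroendocrine granules, the brain creatine kinase Ckb, the kinesins Kif5a and Kif1a, and Thy1. The edge of the list was not sharp. In set 1 the last gene of the list, Rtn1, was at 6.87 and the next, Rab6b, at 6.86. In set 2 Rpl26 was at 6.45 and Nsmf at 6.42. All 100 genes of either list were measured in the other set, and 99 were among its brightest 5%.

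**Figure D3:**
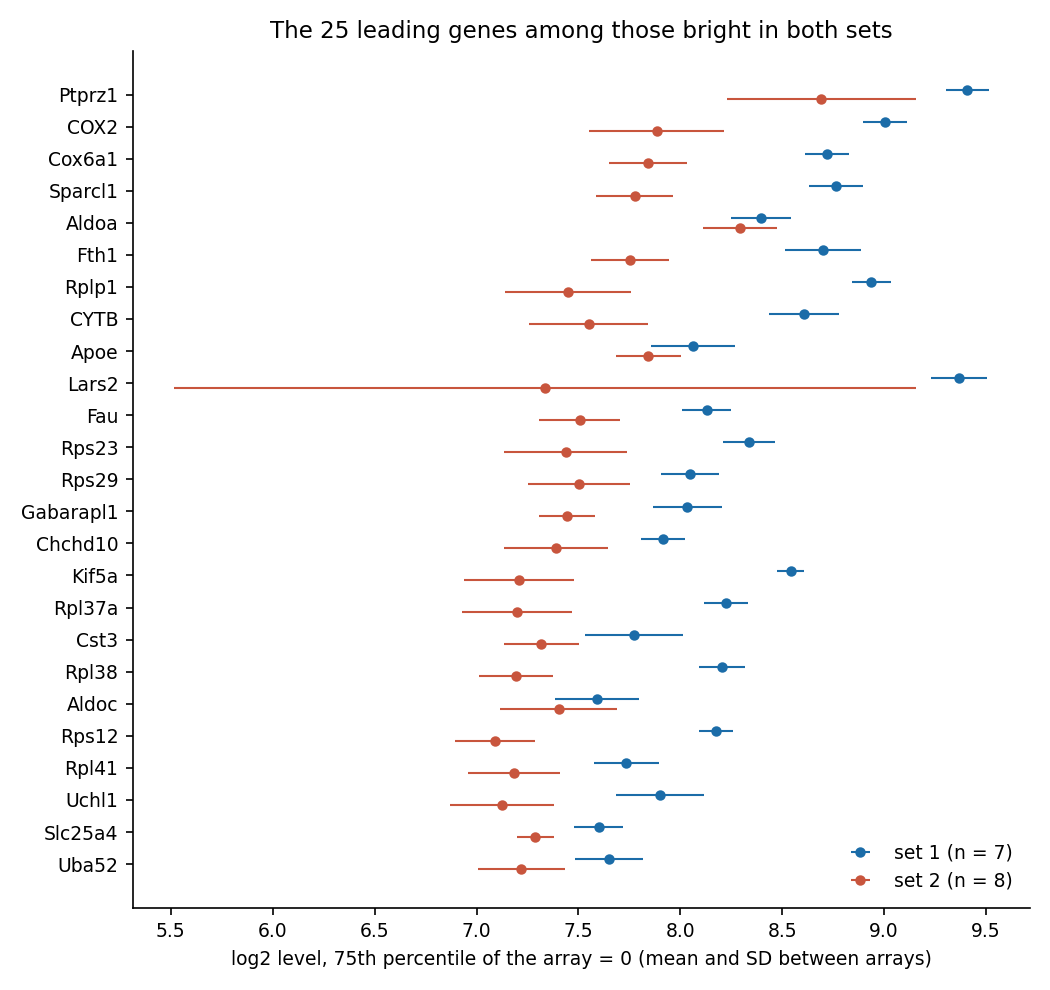
Mean level of the 25 brightest genes shared by both sets (log2 relative to the 75th percentile, horizontal axis), with error bars of 1 SD over 7 arrays (set 1) and 8 arrays (set 2). Ptprz1 led both sets, every SD but that of Lars2 in set 2 (1.82) was under 0.5, and set 1 lay to the right of set 2 for each gene. Sparcl1 was read by a different probe in each set.

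The brightest genes had a lower median SD than genes at large. It was 0.14 in set 1 and 0.23 in set 2 for the 100 brightest, beside 0.18 and 0.34 for all genes, and all 82 measured ribosomal protein genes had medians of 0.14 and 0.21. The largest SDs among them were those of Rn28s1, the 28S ribosomal RNA, in set 1 (1.15), and of Lars2, a mitochondrial leucyl-tRNA synthetase, in set 2 (1.82). Grn, the progranulin gene, had an SD of 1.35 in set 2. Lars2 ranged only from 9.16 to 9.52 in set 1 but was at 8.42, 8.17, 6.47, 8.23, 8.27, 3.21, 8.71 and 7.19 in WT 8 to WT 15. Rn28s1 was at 4.78 in WT 1 and at 7.27 to 8.34 on the other arrays of set 1, and in set 2 it ranged from -1.45 in WT 13 and -0.44 in WT 15 to 3.37. WT 13 was thus the lowest for both. AY036118, an unclassified transcript, was highest on WT 1 (3.83, others 0.43 to 1.42) and on WT 15 (5.28, others 0.63 to 2.59), where Rn28s1 was low.

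Levels of the same gene were not interchangeable between the sets. Over the 13990 genes measured in both, mean levels had a Pearson correlation of 0.954 and a Spearman correlation of 0.955. These are descriptions across genes, which are not independent replicates, and the sets share the probes. Of 23405 probes well above background on all 15 arrays, 14741 (63%) differed between the sets by limma at an adjusted p of 0.05, with 6870 (29.4%) higher and 7871 (33.6%) lower in set 2. With the percentile taken over detected probes, 4645 were higher and 10635 lower. The median absolute difference was 0.51, and 19.5% of probes with a gene symbol differed by more than 1. Of the 79 shared brightest genes, 61 passed the test, 2 of them higher and 59 lower in set 2, with a median difference of -0.54 beside -0.016 over all tested probes with a gene symbol. Scanner output and slides, and perhaps animals, changed together between the sets and cannot be told apart. Further comparisons were therefore made within a set.

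The most variable genes overlapped far less than the brightest. Of the 100 genes with the largest SD in each set, 10 were shared. These were Cga, Syt10, Neurod2, Rn28s1, Itpka, S100a9, Grn, Slc6a3, AY036118 and Egr4. Without WT 10 the shared genes were 11, of which 8 were among these 10, and Itpka and Egr4 were no longer shared while Ahsg, Serpina1d and Sln were. Of the 100 most variable genes of set 1, 61 were measured in set 2, with a median SD of 0.69 there beside 0.34 for all genes. Of those of set 2, 94 were measured in set 1, with a median SD of 0.41 beside 0.18. The last gene inside the list of set 1 had an SD of 0.91 (Pisd-ps3), as had the first outside it (Il31ra), and in set 2 both Cfap52 inside and Tnnt1 outside had an SD of 1.34. Across the 13990 genes the SDs of the sets had a Pearson correlation of 0.40 and a Spearman correlation of 0.39, or 0.36 and 0.34 without WT 10, given as descriptions across genes that share probes and background.

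**Figure D4:**
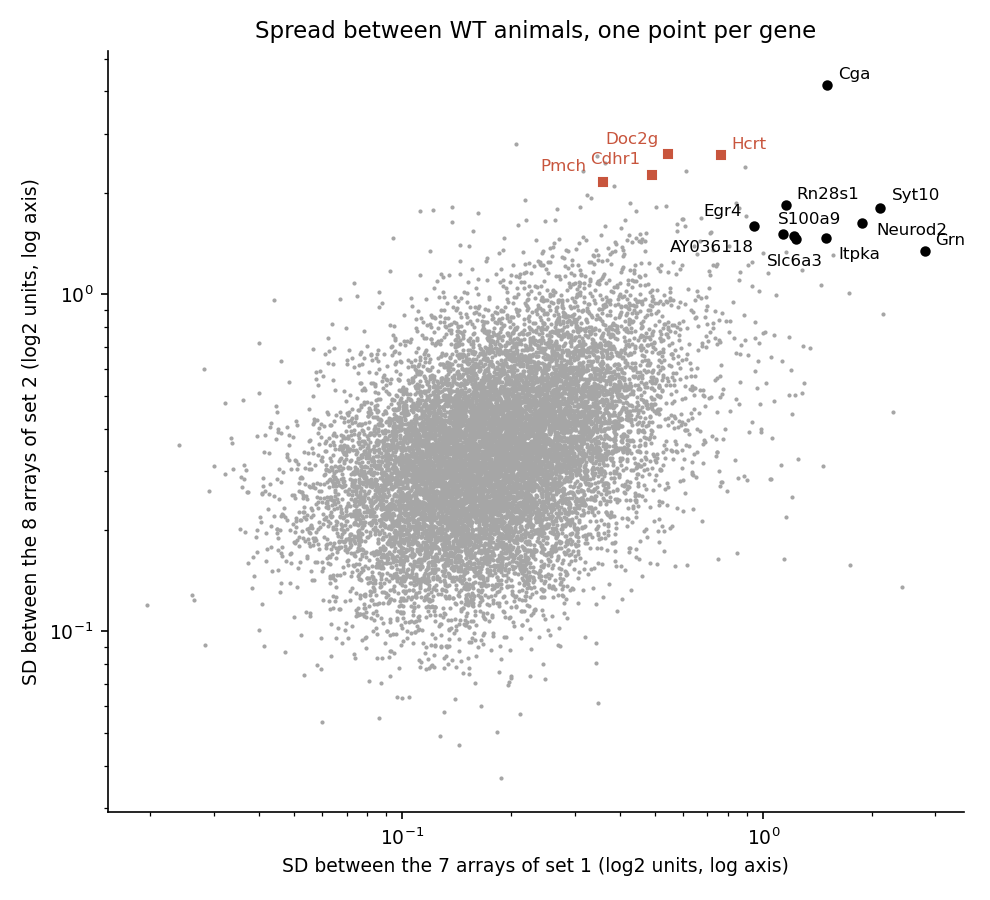
SD between the 8 arrays of set 2 (vertical axis) against the SD between the 7 arrays of set 1 (horizontal axis), both in log2 units on log axes, 1 point per gene. Black points are the 10 genes among the 100 most variable of both sets, with Cga (SD 1.51 and 4.17) at the top. Red squares are Hcrt, Pmch, Doc2g and Cdhr1, whose SD in set 2 rested on WT 10.

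Among the shared variable genes, Cga, which encodes the alpha subunit common to the glycoprotein hormones of the pituitary, had the largest spread in set 2 (SD 4.17, or 3.65 without WT 10). It was at -1.26, -1.65, -0.51, -4.48, -3.85, -0.98 and -2.56 in set 1, and at -0.94, 2.58, -5.20, 2.99, -3.74, 1.85, 8.06 and 1.27 in set 2. The highest array was WT 14, where the mean of the anterior pituitary list was highest, as were 2 of its 3 measured genes. Lhb, the beta subunit of luteinizing hormone, was at 3.24 in WT 14 and between -3.44 and -1.80 on the others. The hormones prolactin (Prl, 8.14) and growth hormone (Gh, 8.69) were also at their highest in WT 14, as were Pitx1 (2.48), a pituitary transcription factor, Tshb (2.98) and Pomc (8.63, others 0.30 to 5.03). Prl was well above background on 4 of 7 and 6 of 8 arrays and Gh on 7 of 7 and 7 of 8. In set 1 the Gh probe kept to a range from -4.03 to -3.62, whereas Cga still ranged over 3.97 log2 units. In bulk tissue a larger amount of a neighbouring tissue and more RNA per cell cannot be told apart.

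Neurod2, Itpka and Egr4 shared a pattern in set 1. Neurod2, a transcription factor of cortical and hippocampal excitatory neurons, was at 1.77, -2.46, 2.73, -1.45, 1.64, 1.32 and 0.29 in WT 1 to WT 7, and its second probe was also lowest in WT 2 and WT 4. Itpka, a kinase of dendritic spines of forebrain neurons, was at 1.16 and 1.11 in WT 2 and WT 4 and between 3.20 and 4.78 on the other arrays, with a gap of 2.04 between them. Egr4, an immediate early gene, was at -1.19 and -0.97 in these arrays and between 0.38 and 1.29 elsewhere. Arc (0.97 and 1.33, others 1.66 to 2.92) and Egr1 (0.47 and 0.69, others 1.34 to 2.07) were likewise lowest in WT 2 and WT 4. Of the 12 measured genes of cortex and hippocampus, 11 lay below the median of the other arrays in WT 2 and 11 in WT 4, and all 12 lay above it in WT 3. Of the 21 activity-regulated genes, 16 lay below in WT 2, 18 in WT 4 and 2 in WT 3. In WT 2, WT 3 and WT 4 the lists thus lay on the same side, but in WT 7 they did not, with 11 of 12 cortical genes below the median of the other arrays (mean difference -0.42) and 11 of 21 activity-regulated genes above it (0.18). The part of one list in the other was not tested. Hypothalamic transcription factors ran the other way, with 16 of 16 above the median of the others in WT 2 and 13 of 16 in WT 4.

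In set 2 Neurod2 was at 0.31 in WT 8 and 1.02 in WT 10 and between -3.45 and -2.13 on the other arrays. Meis2, a transcription factor of striatal neurons, was at 3.90 and 6.08 there and between 0.83 and 1.87 elsewhere. The lists were split in WT 8, with 6 of 11 cortex and hippocampus genes and 10 of 18 activity-regulated genes above the median of the other arrays. In WT 10 these were 8 of 11 and 16 of 18. The activity-regulated Egr4 (2.65, others -2.24 to -0.78), Arc (4.23, others 0.20 to 1.89), Egr1 (3.89, others -0.12 to 1.67) and Nr4a1 (5.15, others 1.23 to 3.39) were all highest in WT 10. Leaving it out lowered the SD of Egr4 from 1.59 to 0.53, of Arc from 1.23 to 0.52 and of Egr1 from 1.25 to 0.60. The spread of these 3 immediate early genes in set 2 thus rested mostly on the array whose tissue markers went against its label.

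The other shared variable genes had their own patterns. S100a9, a calcium-binding protein of neutrophils, was at 2.37 in WT 8 and between -2.92 and -0.64 on the other arrays of set 2, and in set 1 it was highest in WT 6 (-1.53) and WT 3 (-1.91) with the others between -4.64 and -3.37. WT 8 was also highest for all 6 measured blood genes, including the alpha globin Hba-a2 at 7.39 (others 4.39 to 6.27). Slc6a3, the dopamine transporter, was at 0.37, 0.48, 1.07, 1.60, 2.80, 1.66 and 3.77 in set 1 and at -1.17, 2.91, 0.48, 1.58, 1.97, -0.37, 2.15 and -0.38 in set 2. Th, the first enzyme of dopamine synthesis, was also highest of set 1 in WT 7 (1.24, others -0.64 to 0.30), as was the vesicular monoamine transporter Slc18a2 (1.55, others -0.12 to 0.89). Of the 6 measured genes of monoamine neurons, 4 were highest and 2 lowest in WT 7. Of the 10 shared genes, Cga was shared under all 12 ways of processing the data that were tried, Rn28s1 under 11, Neurod2, Slc6a3 and Syt10 under 9, AY036118, Egr4 and S100a9 under 8, Itpka under 7 and Grn under 6.

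For Grn and Syt10 the spread belonged to 1 probe of the gene. The first bases of the probes are printed for the 3 genes with such a pair of probes, because the finding rests on which stretch of the gene was read. Each probe has 60 bases, of which the first 30 are given, 5′ to 3′, with positions in mm9 as the set 1 file headers name it. The Grn probes start 3101 bases apart, those of Slc25a29 338 and those of Syt10 8321.
Grn, variable probe, chr11:102294591-102294650: atggccactgtcctgctggctattcttgtc
Grn, steady probe, chr11:102297692-102297751: tccactgttcagccaggggaaccaagtgtt
Slc25a29, variable probe, chr12:110064713-110064772: gcctcgctaagtctgccctatgcagacaga
Slc25a29, steady probe, chr12:110064375-110064434: agacaggccaccggcctcaatgtctccaca
Syt10, variable probe, chr15:89612967-89613026: aggccaccgtccacaccataaaagcctcca
Syt10, steady probe, chr15:89621288-89621347: gtgagggccgaagacttaaaaaacggaaaa

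Progranulin, which Grn encodes, is a secreted and lysosomal protein that is abundant in microglia. The variable Grn probe was at 8.83, 0.61, 3.04, 2.06, 1.64, 2.25 and 0.81 in set 1, where it had the largest SD of any gene (2.81), and at 6.04, 6.47, 5.37, 6.21, 6.88, 5.13, 8.08 and 9.11 in set 2. The steady probe stayed between 0.77 and 1.08 in set 1 and between 1.81 and 2.94 in set 2. The ranges of the sets overlapped for the variable probe only through WT 1. In the 7 Per3 5/5 arrays of set 1 the variable probe was between 0.066 and 0.66. Syt10, a synaptotagmin, had its variable probe at 3.55 in WT 1 and between -2.20 and -1.70 on the other arrays of set 1, while the steady probe ranged from -1.52 to -0.73. WT 1 was therefore apart for Grn, Syt10, AY036118 and Rn28s1 alike. In set 2 the Syt10 probe was highest in WT 15 (3.46), which was also the highest array for the Grn probe and AY036118.

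**Figure D5:**
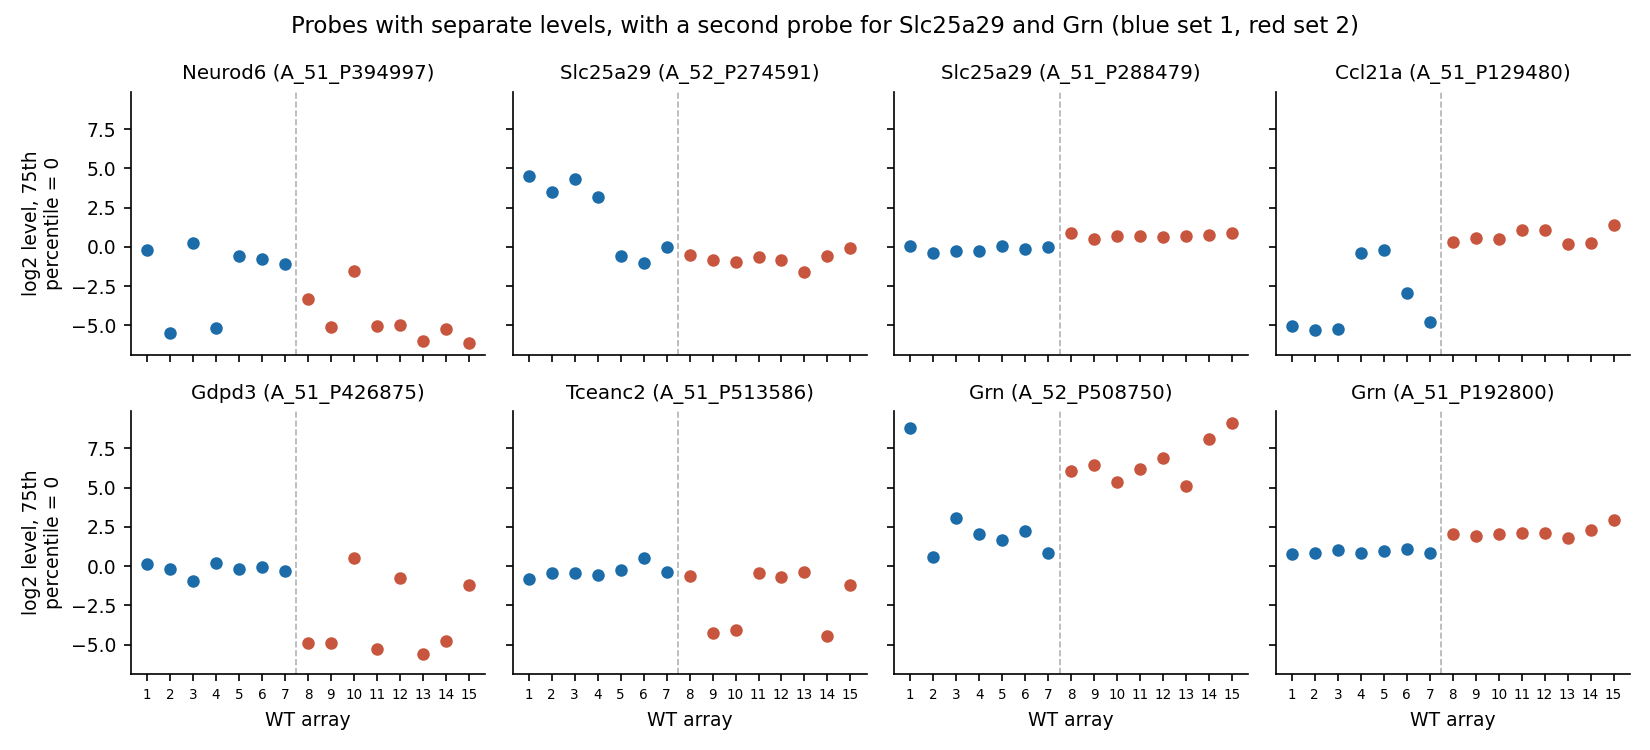
Level of 8 probes (log2 relative to the 75th percentile, vertical axis) on each WT array (horizontal axis), for Neurod6, both probes of Slc25a29, Ccl21a, Gdpd3, Tceanc2 and both probes of Grn. Neurod6, the variable probe of Slc25a29 and Ccl21a fell into separate levels in set 1, and Gdpd3 and Tceanc2 in set 2, while the steady probe of Grn stayed between 0.77 and 2.94.

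Some genes fell into separate levels, with at least 2 arrays on either side of a gap of 2 or more log2 units, and there were 8 such genes in set 1 and 12 in set 2. Neurod6, another transcription factor of cortical excitatory neurons, had the largest gap of set 1 (4.05), with WT 2 at -5.51, WT 4 at -5.15 and the others between -1.09 and 0.23. Spink8 (gap 2.94) and Itpka split the same arrays. Slc25a29, a mitochondrial carrier of basic amino acids, was at 4.50, 3.51, 4.35 and 3.16 in WT 1 to WT 4 and at most 0.01 in WT 5 to WT 7, whereas its steady probe ranged from -0.36 to 0.067. Plet1 split the same way, between 0.81 and 1.38 in WT 1 to WT 4 and between -2.59 and -2.18 in the others. WT 1 and WT 2 shared slide 4 and WT 3 and WT 4 slide 3, so among the WT arrays slide and animal cannot be told apart for these genes. The 7 Per3 5/5 arrays lay on the same slides as the WT arrays of set 1. In them the variable Slc25a29 probe ranged from -0.69 to 3.87 and the steady probe from -0.34 to 0.20. Whether these values followed the slides was not tested. The chemokine Ccl21a was at -0.36 in WT 4 and -0.20 in WT 5 and at -5.31 to -2.93 in the other arrays of set 1, while all 8 arrays of set 2 lay between 0.16 and 1.37.

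In set 2 the arcuate peptide Agrp had the largest gap (3.86), at -4.54 in WT 8 and -5.21 in WT 10 and between -0.68 and 0.89 on the others. Prkcd, a kinase of thalamic relay neurons, and Ramp3, a partner of calcitonin family receptors, separated the same pair of arrays. Prkcd was at -0.08 and -0.69 there and between 2.31 and 4.54 elsewhere, and Ramp3 at 0.50 and 0.63 against 2.99 to 4.57. Gdpd3, a lysophospholipase D, split another way, at 0.54 in WT 10, -0.74 in WT 12 and -1.22 in WT 15 and between -5.62 and -4.75 in the other 5, while all 7 arrays of set 1 lay between -0.92 and 0.20. All 3 probes of Tceanc2 were lowest in WT 9, WT 10 and WT 14, with the brightest at -4.29, -4.08 and -4.44 there and between -1.24 and -0.38 in the other 5. Folr1 and Wfdc2, expressed by epithelia such as the choroid plexus, were highest in WT 9 and WT 14. WT 9 was highest for 9 of the 10 measured choroid plexus genes, and transthyretin (Ttr) was at 2.65 there, at 0.46 in WT 14 and between -7.13 and -2.21 elsewhere.

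WT 8 differed from the rest of set 2 in a further way. Of the 12 thalamus genes, all were below the median of the other arrays, as in WT 10, but 13 of 14 oligodendrocyte genes were above it. The homeobox gene Hoxb5, which is used along the hindbrain and spinal cord, was at 2.13 in WT 8, the only array of set 2 where it was well above background, and at most -6.08 on the others. The serotonin transporter Slc6a4 (-0.07, others at most -5.42) and the enzyme of serotonin synthesis Tph2 (-0.23, others at most -5.34) were also highest in WT 8. These 2 serotonin genes were picked out after their values were seen. The 5 measured genes of monoamine neurons, which do not include them, were all below the median of the other arrays in WT 8 (mean difference -1.26). The neurofilament genes Nefm (4.46, others 1.40 to 2.84) and Nefl (6.54, others 4.47 to 5.33) were highest in the same array. Hcrt and Pmch in WT 8, at 5.58 and 4.29, were far above WT 10 but the lowest of the other arrays of set 2. Of the 27 neuropeptide genes, 20 were below the median of the other arrays in WT 8 (mean difference -0.71). So were 10 of the 11 hypothalamic transcription factors (-0.59).

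Several genes best known from the liver, whose products circulate in blood, varied widely between the arrays of set 1. They were grouped after their values were seen, and no list of such genes was tested. Mup1, a major urinary protein, was at 0.86 in WT 1, 1.14 in WT 6 and -6.88 in WT 4, with the others between -2.45 and -0.85. Alb (albumin) ranged from -5.82 in WT 4 to -0.57 in WT 1. Apoa2, an apolipoprotein of high-density lipoprotein, was at -0.09 in WT 1 and -0.01 in WT 6 and between -2.67 and -2.35 elsewhere, and Ahsg (fetuin-A) was likewise highest in these arrays, at -0.64 and -1.16. The immunoglobulin gene Iglv1, which is made by B cells, separated WT 1 and WT 6 too, at -1.65 on both against -5.13 to -3.67. In set 2 Alb ranged from -5.56 in WT 9 to -1.20 in WT 11. Hemoglobin did not follow this order, since Hba-a2 was at 5.98 in WT 1 but at 4.72 in WT 6.

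Of 332 genes in 24 lists of tissue, cell type and response genes, 324 had a probe. Those in the most variable 5% of genes (755 genes or 4.99% in set 1, with an SD of at least 0.46, and 708 genes or 5% in set 2, with an SD of at least 0.80) numbered 58 of 304 measured in set 1 and 79 of 282 in set 2. The lists with the largest median SD in set 1 were those of monoamine neurons (0.53, 4 of 6 genes in the top 5%), cortex and hippocampus (0.52, 7 of 12), choroid plexus (0.51, 9 of 16) and blood (0.47, 3 of 6), beside 0.18 for all genes. In set 2 they were anterior pituitary (2.09, 2 of 3), thalamus (1.31, 9 of 12), choroid plexus (1.17, 7 of 10) and blood (1.04, 6 of 6), beside 0.34 for all genes. Without WT 10 these 4 medians were 2.22, 1.05, 0.86 and 1.09. The thalamus list had no gene in the top 5% in set 1, where its median SD was 0.28.

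Hypothalamic neuropeptides varied more than most genes in both sets. Their median SD was 0.39 in set 1, with 6 of 27 genes in the top 5%, and 0.76 in set 2, with 13 of 27, or 0.47 with 6 of 27 without WT 10. In set 1, WT 6 was highest for 14 of the 27 peptide genes and WT 5 lowest for 13. Agrp was lowest in WT 3 (-3.49, others -1.82 to -0.60), and Hcrt ranged from 3.46 in WT 1 to 5.49 in WT 6. The steadiest peptide of set 2 was somatostatin (Sst), with 4.24 ± 0.23 (n = 8), and it had 3.57 ± 0.35 (n = 7) in set 1. Enzymes and granule proteins of peptide processing had no gene in the top 5% of either set, with medians of 0.20 and 0.42. Transcription factors of the hypothalamus had medians of 0.39 (6 of 16 in the top 5%) and 0.93 (7 of 11), or 0.40 and 4 of 11 in set 2 without WT 10. Sim1, which specifies paraventricular neurons, was well above background on all 7 arrays of set 1 and on none of set 2, and the Otp probe on none of either.

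Genes of the circadian clock had, as a list, a median SD near that of all genes at this single time of collection, which was not tested. It was 0.20 beside 0.18 for all genes in set 1 and 0.34 beside 0.34 in set 2, with 0 of 20 and 2 of 20 in the top 5% (1 of 20 without WT 10). Dbp, an output gene of the clock, was at 4.98 ± 0.23 in set 1 and 5.23 ± 0.16 in set 2. Per1 was at 0.37 ± 0.11 and 1.07 ± 0.45, and Arntl at -0.88 ± 0.32 and 0.28 ± 0.24. Per3, the gene that the KI lines carry in altered form, was at -2.65 ± 0.38 (n = 7) and -3.68 ± 0.47 (n = 8), lowest in WT 1 (-3.41) and WT 13 (-4.55). The Y-linked gene Ddx3y was above background on all 15 arrays with its brighter probe, at 0.96 ± 0.16 and 1.21 ± 0.43, in mice stated to be male.

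Activity-regulated genes had a median SD of 0.29 (6 of 21 in the top 5%) and 0.78 (9 of 18), or 0.53 with 4 of 18 in set 2 without WT 10. Npas4, an early gene of neuronal activity, was at -2.65 in WT 7 and between -5.74 and -4.87 on the other arrays of set 1. It was among 11 genes for which WT 7 lay at least 2 log2 units above every other array of the set. WT 7 also had the lowest share of spots well above background in set 1 (67.4%). Why it stood apart for these genes was not tested. Interferon-induced genes (0.23 and 0.49) and endothelial genes (0.34 and 0.31) had no gene in the top 5% of either set, and neither had the housekeeping genes (0.14 and 0.22). Without WT 10, 2 of 12 interferon-induced genes and 1 of 10 endothelial genes of set 2 were in the top 5%. Markers of neurons as a class had medians of 0.17 and 0.39, with 0 of 13 and 2 of 13 in the top 5%, or 0.31 and 1 of 13 in set 2 without WT 10. Microglial genes had medians of 0.30 and 0.36, and WT 7 was lowest for 11 of the 12 in set 1. Among the remaining lists, the median SD was 0.38 (6 of 14) and 0.76 (6 of 12) for ependyma and tanycytes, 0.35 (2 of 15) and 0.47 (0 of 15) for meninges and vessel wall, 0.28 (2 of 12) and 0.43 (1 of 12) for glucocorticoid-induced genes, and 0.25 (3 of 10) and 0.26 (0 of 10) for heat shock and cold-inducible genes. Astrocytes had 0.21 (1 of 11) and 0.44 (1 of 11), and oligodendrocytes 0.27 (1 of 14) and 0.46 (1 of 14). In set 2 without WT 10, the median SD was 0.60 (5 of 12) for ependyma and tanycytes, 0.47 (1 of 15) for meninges and vessel wall, 0.40 (1 of 12) for glucocorticoid-induced genes, 0.36 (0 of 11) for astrocytes and 0.39 (1 of 14) for oligodendrocytes. Cortex and hippocampus had 0.85 (6 of 11) in set 2, or 0.58 (4 of 11) without WT 10, and monoamine neurons 0.89 (3 of 5), or 0.74 (3 of 5). The striatum list had 0.28 (0 of 10) in set 1 and 0.76 (4 of 11) in set 2, or 0.48 (1 of 11) there without WT 10.

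Genes with a probe well above background on some but not all arrays of a set numbered 3216 in set 1 and 5066 in set 2. The rankings left out these probes, but a gene with another probe above background on all arrays was still ranked. Among the probes left out, that of Lct, the lactase gene, had the widest range in set 1. It was at -6.12 in WT 2 and -3.52 in WT 4, the arrays that Neurod6 separated, and up to 2.15 in WT 3. Of the 10 widest ranges of set 1, 7 belonged to probes detected on WT 7 alone (for Npsr1, Slc8a1, Hormad2, Dlgap5, Atg7, Rttn and Kcng3). Other probes of the same genes may have been detected on more arrays. In set 2 the widest were Prl and Gh, followed by S100a5, a gene of olfactory sensory neurons, at 5.08 in WT 10 and at most -4.68 elsewhere. Eomes, a transcription factor of olfactory bulb output neurons, was at 1.03 in WT 10 and at most -4.51 elsewhere. The Ccer1 probe was detected on WT 12 alone, at 1.72.

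Few probes passed a test for differences between slides, and the test could find only large ones. Within set 1, 9 of 26692 probes (0.0337%) differed between slides by limma's F test at an adjusted p of 0.05, and 1771 at an unadjusted p of 0.05. Hmx1 (-0.57 in WT 7, others -5.42 to -4.62) and Ucn2 (-1.77, others -5.55 to -5.26) were among the 9, and WT 7 was the only WT array on its slide. Plet1 was also among them, with an adjusted p of 0.014. Without WT 2 the count was 64, without WT 1 it was 12, and without any 1 of WT 3 to WT 7 it was 0. In set 2, with scan images taken as slides, limma called 0 of 23781 probes (0%), or 11 without WT 11. With all arrays, 1438 probes had an unadjusted p under 0.05. In simulated data the test recovered 62% of changes of 2 log2 units in set 1 and 16% in set 2. It recovered 78% and 70% of changes of 3, and 0% of changes of 1 in both sets. Smaller slide effects were thus not detectable with these arrays, and the low counts do not show that slides matter little.

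KI arrays of the same sets served as a second look at the variable genes. They lay on the same slides as the WT arrays, so they were not an independent repeat. Of the 100 most variable WT genes of set 1, 35 were also among the 100 most variable over the 7 Per3 5/5 arrays. Those 100 were taken from 15161 genes measured there. Of the 100 of set 2, 30 were among the 100 over the 8 Per3 4/4 arrays, or 40 when WT 10 was left out. The 100 of the Per3 4/4 arrays were taken from 14090 genes. Of the variable genes of set 1, 87 were measured in the Per3 5/5 arrays, with a median SD of 0.78 beside 0.21 for all genes there. Of those of set 2, 93 were measured in the Per3 4/4 arrays, with 0.66 beside 0.28. Pmch and Doc2g, extreme in WT 10, stayed between 4.63 and 6.65 and between -3.51 and -1.11 in the Per3 4/4 arrays.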

How the data were processed

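RNA of WT hypothalami was measured on 1-colour Agilent 4x44K arrays. The authors deposited the spot intensities of each array as Feature Extraction wrote them, background-subtracted and not normalized between arrays. The authors also made a table of log2 values, shifted to the 75th percentile before it was deposited, which proved to be centred to a median of 0 for each probe within each set. In set 2 all 8 WT columns of it matched the scanner file of their own label. In set 1 none of the 7 did, and each matched another WT replicate's scanner file, so replicate numbers here follow the scanner files and genotype is unaffected. Outlier spots were left out (36 to 117 of 43379 on an array), and no spot was saturated.

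The intensities were converted to log2, the 75th percentile of the array was subtracted, and spots of a probe were averaged. Genes were ranked within a set by mean level and by SD over probes well above background on all arrays. Sets and slides were compared with limma 3.58.1 in R 4.3.3 with Benjamini-Hochberg adjustment. The test between sets, checked on simulated data, recovered 86% of changes of 1 log2 unit. Python was 3.11.15. Gene symbols of the array were updated through RefSeq accessions where these matched (26917 of 27367 probes). Set 1 file headers name mm9 as the build. Nothing states whether any RNA sample was run more than once, within a set or in both sets. SDs hold animal and array error together. The methods exclude 1 KI and 1 WT sample for array quality.

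Named genes are the first 15 genes shared among the 100 brightest, those shared among the 100 most variable, the 5 most variable particular to each set, the 3 most variable of each list, up to 10 genes per set with separate levels and up to 10 detected on some arrays, and Per3 with the Y-linked genes. Other genes were named after their values were seen. The members and lists were chosen with earlier results of these data known. Alternatives were quantile normalization, another percentile, normexp with an offset of 50, a looser filter, a floor, outlier spots kept, lists of 50 or 200 genes, the mean over probes, spread within slides, the median absolute deviation, spread relative to probes of like level, the authors' table, limma-trend, and each array left out. Crh, Nms, Vgf, Zbtb16, Kcnj13, Pou1f1, Hbb-b2 and Syndig1l of the lists were not matched to a probe. Some single-gene results are not reported here.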

Additional observations from a re-analysis of the deposited data

Results flagged for a closer look

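In each set, the named genes and lists reported here were examined for 1 array at an end whose gap to its neighbour took up more of the range than Dixon's limit allows, and 44 of 245 groups of values passed. Chance flags about 1 in 20 groups, but many of these genes were named for a large spread, so the count cannot be read against that share. Genes described above are not independent of each other, since the same arrays recur. Values are log2 levels, or mean deviations of a list from its set.

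In set 1, WT 1 held 10 of these values. It was highest for the housekeeping list (0.16), CYTB (8.97), Rps29 (8.35), Syt10 (3.55), Grn (8.83), AY036118 (3.83), Hba-a2 (5.98) and Hbb-bt (7.16), and lowest for Gabarapl1 (7.67) and Rn28s1 (4.78). WT 3 was lowest for Agrp (-3.49) and WT 2 for Cdkn1a (-2.09).

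In set 2, WT 10 held 19. It was highest for the lists of activity-regulated genes (1.29) and striatum (1.64), for Egr4 (2.65), Arc (4.23), Egr1 (3.89), Cdkn1a (1.36), Spink8 (-1.28), Doc2g (4.74), Ly6g6e (3.48) and Ido1 (0.16). It was lowest for the astrocyte list (-0.48), Hcrt (-0.79), Hmx2 (-4.93), Hmx3 (-3.51), Lhx1 (-3.98), Tmem212 (-3.89), Agt (2.50), Slc17a6 (1.00) and Slc18a2 (-1.20). WT 14 was highest for the anterior pituitary list (4.15), Lhb (3.24) and the unnamed transcript 4930579G24Rik (5.72). WT 8 was highest for Fth1 (8.18), S100a9 (2.37), Nefm (4.46) and Nefl (6.54). WT 15 was highest for the housekeeping list (0.24), Gapdh (8.50) and AY036118 (5.28) and lowest for Fau (7.09). WT 13 was lowest for CYTB (6.87) and Lars2 (3.21). Why these arrays lie apart was not tested.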

How the results depend on the processing

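The count of shared brightest genes was 33 with lists of 50 and 156 with lists of 200, and ranged from 75 to 79 under the other settings and from 78 to 82 with 1 array left out. The count of shared variable genes was 4 with lists of 50 and 32 with lists of 200, 17 with normexp, 6 with the median absolute deviation and 18 with spread relative to probes of like level, and ranged from 7 to 13 with 1 array left out. With normexp all 10 genes remained shared, with the looser filter or the median absolute deviation 3 of them, with spread within slides or a floor 4, with the mean over probes 7, and with quantile normalization or the values in the authors' table all but 1. The median SD of set 1 was 0.16 with normexp, 0.16 with the median absolute deviation and 0.16 without WT 1, and ranged from 0.16 to 0.21 with 1 array left out. That of set 2 was 0.24 with the median absolute deviation and ranged from 0.31 to 0.37 with 1 array left out, beside 0.29 with normexp and 0.38 with the looser filter on dim probes. With 1 array left out, probes that differed between the sets ranged from 13976 to 15409, and probes that differed between slides from 0 to 64 in set 1 and from 0 to 11 in set 2. The former were 16608 with the looser filter, and the latter were 20 in set 1 with normexp. List genes in the most variable 5% ranged from 51 to 66 in set 1 and from 61 to 81 in set 2 with 1 array left out. Of the SDs of named genes, 109 moved by more than their spread and 1582 did not with 1 array left out, and 59 moved and 1297 did not under other settings. Of their levels 219 moved and 911 did not under other settings, and 0 moved with 1 array left out. Leaving out 1 array can shift a mean by only a part of the SD over the arrays. The count of 0 was thus nearly fixed in advance and does not show that the levels are steady. The causes of the moves were not tested. No paired analysis was possible because only WT arrays were compared and their replicate numbers are not shared between the sets. Signal over background limits what is ranked, since 64.8% of probes in set 1 and 57.8% in set 2 were above background on every array.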
